A study of Mus musculus with 12 samples.

Results

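The circadian clock genes of the mouse hippocampus were followed in 12 poly(A) RNA-seq libraries, 3 in each of 4 groups. Of the 55421 genes listed in the files, 10 were chosen by name as core clock and clock output genes, namely *Per1*, *Per2*, *Per3*, *Cry1*, *Cry2*, *Arntl*, *Clock*, *Nr1d1*, *Nr1d2* and *Dbp*. All 10 were among the 22592 genes that had more than 20 counts in total and were tested. WT-Veh and WT-Nut3 mice were wild type, and KO-Veh and KO-Nut3 mice were *Fmr1* KO (*Fmr1*-/y by the methods of the study, C57BL/6 background), a constitutive loss in all cells. Nut3 mice had received Nutlin-3, an inhibitor of the p53 ubiquitin ligase MDM2, by intraperitoneal injection at 2 months of age, and Veh mice the vehicle, and the hippocampus was taken from all of them at 6 months. Libraries carried the RH numbers 2, 5 and 15 (WT-Veh), 1, 9 and 14 (WT-Nut3), 7, 10 and 16 (KO-Veh) and 6, 8 and 13 (KO-Nut3), and what these numbers stand for was not stated. The hour of harvest was not given in the sources used here. Each library held between 17150820 and 20040482 reads counted on genes, and the levels below are counts scaled to library size (CPM, after TMM scaling).

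The molecular clock is a delayed negative feedback loop that runs in nearly every cell of the body. ARNTL (also called BMAL1) and CLOCK bind E-box elements as a pair and switch on the Period, Cryptochrome, *Nr1d1*, *Nr1d2* and *Dbp* genes, and PER and CRY proteins return to the nucleus and repress that pair. NR1D1 and NR1D2 (REV-ERB alpha and beta) repress *Arntl* through ROR elements, and DBP acts on D-box elements, so that *Arntl* transcripts normally peak at the opposite time of day from those of *Dbp* and *Nr1d1*. The hippocampus keeps a rhythm of its own that follows the pacemaker in the suprachiasmatic nucleus, and FMRP, the product of *Fmr1*, and its paralog FXR2 are known to affect circadian behaviour in mice and flies. The data were used to ask whether genotype or treatment shifted the clock transcripts and how far libraries of 1 group differed from each other in them.

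*Fmr1* was at 79.5, 75.3 and 77.7 CPM in the WT-Veh libraries, 75.2, 74.0 and 78.3 CPM in WT-Nut3, 32.7, 32.5 and 37.3 CPM in KO-Veh and 30.6, 28.5 and 35.7 CPM in KO-Nut3. Every KO library lay below every WT library, as its label says. Over all libraries the log2 fold change of *Fmr1* in KO against WT was -1.22 (SE 0.055, edgeR quasi-likelihood test, adjusted *P* = 1.71e-08). *Fxr1* differed by 0.12 (SE 0.060, edgeR adjusted *P* = 0.652) and *Fxr2* by 0.04 (SE 0.037, edgeR adjusted *P* = 0.831) in the same comparison. The 8 hippocampal marker genes summed to between 875 and 1375 CPM, with *Zbtb20* the most abundant. The 6 markers of the suprachiasmatic nucleus summed to between 10.9 and 14.5 CPM. Nearly all of it was *Vip*, which hippocampal interneurons also express, except in KO-Nut3 RH6, where *Vip* made up 6.16 of 11.2 CPM. Of its other markers, *Avp* did not exceed 0.646 CPM and *Prok2* did not exceed 0.710 CPM in any library. *Lhx1* reached 4.44 CPM in KO-Nut3 RH6, beside a median of 0.324 CPM over all libraries. KO-Nut3 RH6 stood apart in tissue markers, with 113 CPM of *Slc17a6*, a glutamate transporter gene of the thalamus, against 22.2 CPM or less in the other 11 libraries, and it also had the lowest sum of hippocampal markers. *Ttr* had the highest mean over the 12 libraries among the listed choroid plexus genes. It ran from 314 to 4520 CPM in the 3 KO-Nut3 libraries, was 4215 CPM in WT-Nut3 RH9 and stayed between 3.15 and 18.2 CPM in the other 8.

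Levels were compared between genes as the mean CPM per kilobase of exon over the 12 libraries. *Nr1d1* was the most abundant at 23.4, followed by *Cry2* at 22.3, *Nr1d2* at 20.7, *Per1* at 20.6 and *Dbp* at 16.3. *Per2* was at 10.2, *Clock* at 8.20, *Per3* at 8.13, *Cry1* at 5.03 and *Arntl* at 3.27. The ranges over libraries overlapped between all neighbours in this order except *Cry1* (from 3.88) and *Arntl* (up to 3.83). Reads were counted without strand, so reads of *Nr1d1* and *Thra*, *Dbp* and *Sphk2*, or *Cry2* and *D930015M05Rik*, which overlap on opposite strands, cannot be told apart where they overlap. *Per3* lies inside *Camta1* on the same strand.

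Promoter windows of RefSeq (GRCm38.p6, 250 bases before to 50 bases after a start site) were at hand for 9 of the 10 genes, in 13 windows, and *Per2* was not among them. The E-box and D-box matches, and the ROR core of *Arntl*, the gene that REV-ERB proteins repress, are shown as the letters that the factors of the loop described above are known to bind. In each sequence, written 5′ to 3′ on the strand of the gene, the element is in capitals. All matches were sought on both strands, no 2 of these motifs share letters at the same place in the sequences shown, and a match is a description of the letters only.
Cry1, E-box, chr10:85185097-85185126, minus strand: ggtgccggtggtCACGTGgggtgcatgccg
Per1, E-box, chr11:69098771-69098800, plus strand: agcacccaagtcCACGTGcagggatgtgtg
Per3, D-box, chr4:151044805-151044834, minus strand: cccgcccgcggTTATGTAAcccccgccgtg
Per3, D-box, chr4:151044852-151044881, minus strand: cgacccgcgcgTTATGTAAggtactcgggg
Arntl, ROR element core, chr7:113207530-113207559, plus strand: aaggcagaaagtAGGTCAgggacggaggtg
The E-box CACGTG was in 2 of the 13 windows, those of *Cry1* and *Per1*, and in none of *Nr1d1*, *Nr1d2* or *Dbp*. It occurred in 7.15% of all 32851 promoter windows, and the D-box TTATGTAA in 0.938%, where *Per3* held it 2 times. The ROR core AGGTCA, present in 16.3% of windows, was found in *Arntl*, *Clock*, *Nr1d2* and *Per1*. The cyclic AMP element TGACGTCA, in 1.79% of all windows, was in none of the 13.

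None of the 10 clock genes passed an adjusted *P* of 0.05 in any of the 7 comparisons of groups. In KO-Veh against WT-Veh, 0 of 10 passed with edgeR, where 0.0177% of all genes did, and 1 had an unadjusted *P* under 0.05, as did 7.20% of all genes. In KO-Nut3 against KO-Veh, 0 of 10 passed, where 0.199% of all genes did, and 1 had an unadjusted *P* under 0.05, beside 7.60% of all genes. For WT-Nut3 against WT-Veh the count was 0 of 10 (0% of all genes), with 0 unadjusted (3.17% of all genes), and for KO-Nut3 against WT-Nut3 it was 0 of 10 (0.00443% of all genes), with 1 unadjusted (4.87% of all genes). Over all libraries it was 0 of 10 for KO against WT (0.00443% of all genes, and 1 unadjusted beside 8.16%), 0 of 10 for Nut3 against Veh (0% of all genes, and 0 unadjusted beside 7.29%) and 0 of 10 for the genotype by treatment interaction (0% of all genes, and 0 unadjusted beside 4.17%). DESeq2 and limma-voom also called 0 of 10 in each of the 7. With every gene that had at least 1 count in the fit, edgeR called *Per1* and *Per2* in KO-Veh against WT-Veh, and the other 6 comparisons stayed at 0. In the main fit these 2 genes had an unadjusted *P* of 0.0123 and 0.105 (edgeR). The share of all genes called with that wider filter is not given here, so the 2 calls are not read as a result about the members. The median log2 fold change of the 10 genes was 0.06 in KO-Veh against WT-Veh, 0.04 in KO-Nut3 against KO-Veh, 0.04 in WT-Nut3 against WT-Veh and 0.05 in KO-Nut3 against WT-Nut3, beside medians of all genes within 0.01 of 0.

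**Figure D1:**
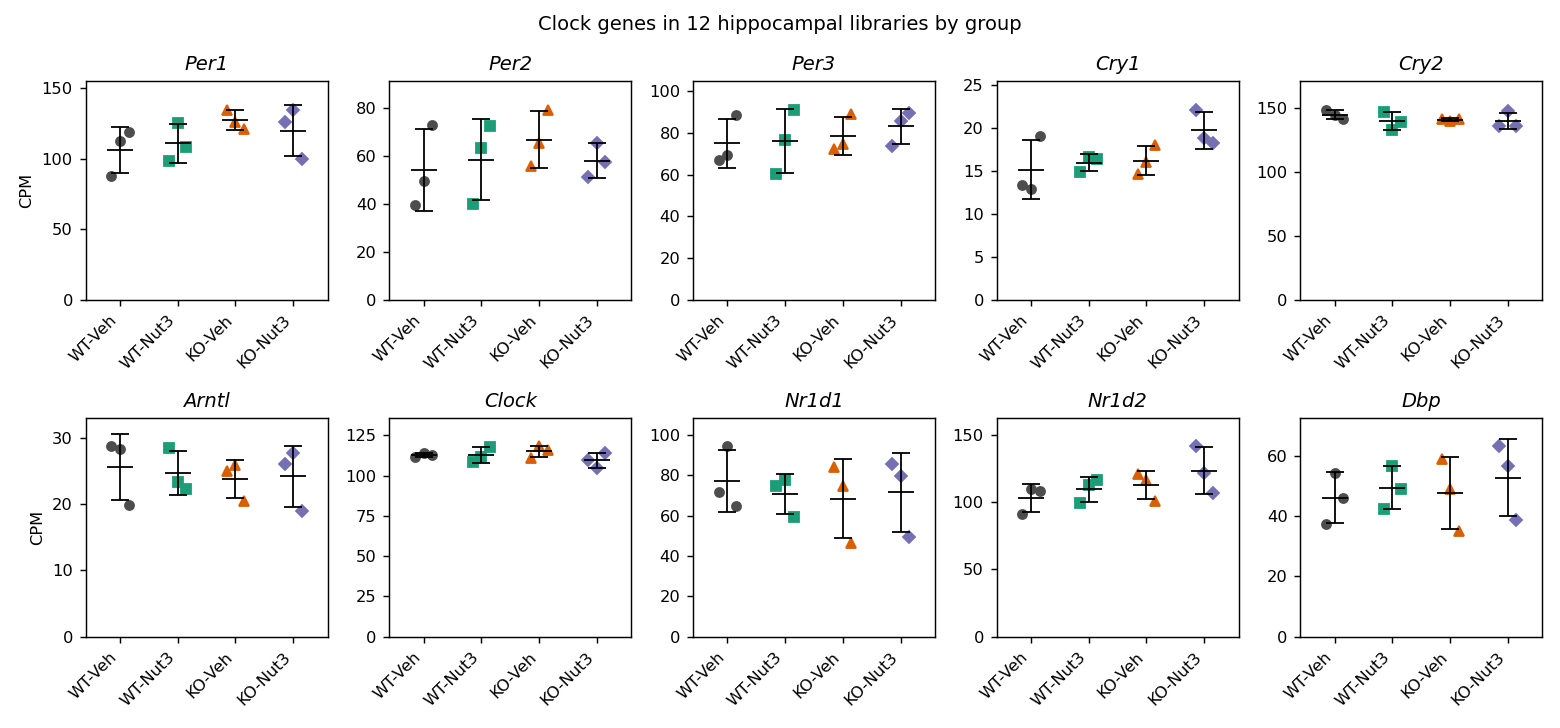
CPM of each clock gene (y axis, from 0) in the 4 groups (x axis), with 1 point per library, a long bar at the mean and whiskers of 1 SD (n = 3). Groups overlap in most panels, and *Cry2* and *Clock* lie close together in all 12 libraries while *Per2*, *Nr1d1* and *Dbp* spread widely within groups.

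*Per1*, an early responder to light, cyclic AMP and glucocorticoids among the Period repressors, was at 88.0, 112 and 119 CPM in WT-Veh and at 135, 126 and 121 CPM in KO-Veh. These 2 groups did not overlap, as was the case for 12.4% of all genes. The log2 fold change was 0.26 (SE 0.090), with an unadjusted *P* of 0.0123 and an adjusted *P* of 0.618 (edgeR). Leaving out 1 library gave 0.14 (without WT-Veh RH2) to 0.35. *Per1* was at 98.6, 126 and 109 CPM in WT-Nut3 and at 126, 134 and 99.6 CPM in KO-Nut3, which overlapped. Over all libraries KO was higher than WT by 0.19 (SE 0.086, edgeR unadjusted *P* = 0.0463, adjusted *P* = 0.604), with overlap. The listed glucocorticoid-responsive genes, such as *Sgk1* and *Tsc22d3*, had a log2 fold change above 0 in KO-Veh against WT-Veh in 11 of 11 cases, beside 48.9% of all genes, with a median of 0.18, and 0 of the 11 passed. The listed immediate-early genes, such as *Fos* and *Arc*, which neuronal activity induces, were above 0 in 10 of 10 cases, with a median of 0.34, and 0 of the 10 passed. In KO-Nut3 against WT-Nut3, where *Per1* differed by 0.11 (SE 0.122), the immediate-early genes were above 0 in 0 of 10 cases (median -0.22). The glucocorticoid-responsive genes were above 0 there in 8 of 11 cases (median 0.11), beside 51.1% of all genes. The RH numbers averaged 11 in KO-Veh and 7.33 in WT-Veh. A slope above 0 with that number was also found for 10 of the 11 and 10 of the 10 genes of these lists, beside 49.3% of all genes. With the RH number as a term, KO against WT over all libraries, where the numbers averaged 10 and 7.67, was 0.17 in place of 0.19 for *Per1*. For *Per1* in KO-Veh against WT-Veh, the 9 alternatives that kept every library gave 0.24 to 0.27, a fit with the RH number as a term among them. The part of either list in the *Per1* value was not tested.

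*Per2*, whose protein is a core repressor of the loop, was at 39.8, 49.5 and 73.2 CPM in WT-Veh, 40.1, 63.3 and 72.6 CPM in WT-Nut3, 55.9, 65.4 and 79.5 CPM in KO-Veh and 51.3, 65.8 and 57.6 CPM in KO-Nut3. All 4 groups overlapped, and the spread within each WT group was nearly as wide as the spread over all 12 libraries. The log2 fold change was 0.30 (SE 0.173, edgeR adjusted *P* = 0.757) in KO-Veh against WT-Veh. It was 0.12 without WT-Veh RH2, 0.16 without KO-Veh RH16, 0.59 without WT-Veh RH15 and 0.12 in a fit of all 12 libraries with the RH number as a term. The interaction term, which asks whether the treatment effect differed between genotypes, was -0.31 (95% interval -0.98 to 0.35, edgeR adjusted *P* = 0.994).

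*Per3*, the third Period gene, was at 66.8, 69.4 and 88.5 CPM in WT-Veh, 60.5, 76.6 and 91.1 CPM in WT-Nut3, 72.0, 74.5 and 89.1 CPM in KO-Veh and 73.8, 85.8 and 89.7 CPM in KO-Nut3. In each group the highest library reached about the same level, between 88.5 and 91.1 CPM. The groups overlapped throughout, and KO against WT over all libraries gave 0.10 (SE 0.096, edgeR adjusted *P* = 0.844).

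*Cry1*, a strong cryptochrome repressor of ARNTL and CLOCK, was at 22.2, 18.8 and 18.2 CPM in KO-Nut3, above 14.7, 16.1 and 18.0 CPM in KO-Veh and 14.9, 16.7 and 16.4 CPM in WT-Nut3. WT-Veh, at 13.4, 12.98 and 19.2 CPM, overlapped with KO-Nut3. KO-Nut3 exceeded KO-Veh without overlap, as 13.3% of all genes differed, by 0.28 (SE 0.119, edgeR unadjusted *P* = 0.0404, adjusted *P* = 0.627). It exceeded WT-Nut3 without overlap, as 10.7% of all genes differed, by 0.30 (SE 0.111, edgeR unadjusted *P* = 0.0250, adjusted *P* = 0.928). The highest *Cry1* value belonged to KO-Nut3 RH6, the library with thalamic markers, and without it the fold changes were 0.19 and 0.21, the lowest values that leaving out 1 library gave. The interaction was 0.21 (95% interval -0.23 to 0.64, edgeR adjusted *P* = 0.994), and Nut3 against Veh over all libraries was 0.18 (SE 0.102, edgeR adjusted *P* = 0.782). When the level of choroid plexus genes entered a fit of all 12 libraries, Nut3 against Veh fell to 0.06 and KO-Nut3 against KO-Veh to 0.16. The interaction was 0.00 without WT-Veh RH15 and 0.11 without KO-Nut3 RH6, and Nut3 against Veh was 0.28 without WT-Veh RH15.

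*Cry2* and *Clock* were the steadiest members. *Cry2*, the second cryptochrome, lay between 133 and 149 CPM, and its highest library was 1.12 times its lowest. *Clock*, the partner of ARNTL whose transcript cycles little in most tissues, lay between 105 and 118 CPM, with a ratio of 1.13. Over all libraries KO against WT was -0.02 for *Cry2* (95% interval -0.10 to 0.06) and -0.01 for *Clock* (95% interval -0.08 to 0.07), the narrowest intervals among the 10.

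*Arntl*, the activator without which the loop stops, was at 28.8, 28.4 and 19.8 CPM in WT-Veh, 28.5, 23.4 and 22.3 CPM in WT-Nut3, 25.1, 25.9 and 20.5 CPM in KO-Veh and 26.1, 27.7 and 19.0 CPM in KO-Nut3. The lowest value of every group came from the library with the highest RH number of that group. KO against WT over all libraries was -0.07 (SE 0.112, edgeR adjusted *P* = 0.919), with overlap. *Nr1d1*, its repressor, was at 72.0, 94.4 and 64.8 CPM in WT-Veh, 74.7, 77.9 and 59.5 CPM in WT-Nut3, 84.2, 74.6 and 46.7 CPM in KO-Veh and 85.7, 79.9 and 49.3 CPM in KO-Nut3. Here too the lowest library of each group was the one with the highest RH number, and KO against WT was -0.08 (SE 0.152, edgeR adjusted *P* = 0.934). *Nr1d2*, the second REV-ERB gene, ran from 91.1 to 142 CPM, and KO against WT was 0.15 (SE 0.072, edgeR unadjusted *P* = 0.0561, adjusted *P* = 0.631). *Dbp*, an output transcription factor with one of the largest daily swings in many tissues, was at 37.4, 54.3 and 46.0 CPM in WT-Veh, 42.4, 56.6 and 48.9 CPM in WT-Nut3, 58.8, 48.9 and 35.0 CPM in KO-Veh and 63.1, 56.4 and 38.6 CPM in KO-Nut3. Its groups overlapped, and KO against WT was 0.07 (95% interval -0.21 to 0.36, edgeR adjusted *P* = 0.928).

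**Figure D2:**
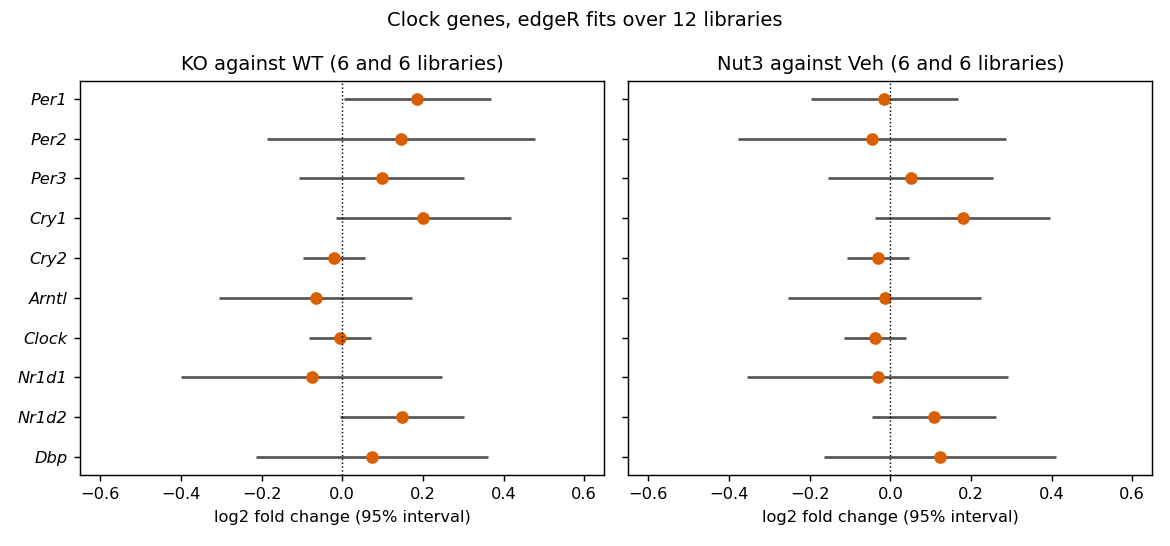
Log2 fold change (x axis) of each clock gene (y axis) in KO against WT and in Nut3 against Veh, points with 95% intervals from edgeR fits over 12 libraries, before adjustment for multiple tests. All intervals cross 0 except that of *Per1* in KO against WT (0.00 to 0.37), and those of *Cry2* and *Clock* are the narrowest.

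Libraries of 1 group differed widely in some of the clock genes, and 8 of the 10 had a spread above the median gene. After the group means were removed, the SD of log2 CPM between libraries was 0.36 for *Nr1d1*, 0.35 for *Per2*, 0.32 for *Dbp* and 0.25 for *Arntl*, beside a median of 0.11 over 11909 genes with a mean of at least 5 CPM. *Nr1d1* thereby stood at the 97.0 percentile of those genes, *Per2* at the 96.8 percentile, *Dbp* at the 95.7 percentile and *Arntl* at the 91.4 percentile. *Per3* (87.1), *Cry1* (83.0), *Per1* (81.6) and *Nr1d2* (71.8) followed, whereas *Cry2* (6.40) and *Clock* (5.29) were among the steadiest genes. In bulk tissue, fewer cells of a type and less RNA per cell cannot be told apart.

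Some members varied together between libraries. Of the 45 pairs of members, 6 were correlated over the 12 libraries (Pearson r of log2 CPM, permutation test with 100000 resamples, two-sided, Benjamini-Hochberg over 45 pairs, adjusted *P* under 0.05), 5 of them positively. The share of pairs correlated this strongly among all genes was not measured, so the count is not read as particular to clock genes. *Phip* had r = 0.97 with *Per2*, above the 0.87 of *Per3*, and *Sgpl1* had r = 0.90 with *Dbp*, above the 0.85 of *Nr1d2*. On residuals from the group means, permuted within groups, 0 of 45 passed, although the r of the 6 pairs lay between 0.77 and 0.94 in size there. The smallest *P* that this permutation within groups can give is 0.000772 before adjustment over the 45 pairs. Leaving out each of the 12 libraries in turn gave between 2 and 8 pairs. The call was then lost in 9 cases for *Per1* and *Nr1d2*, in 4 each for *Per3* and *Arntl* and for *Nr1d1* and *Dbp*, and in 2 for *Arntl* and *Nr1d1*. It was lost in 0 cases for *Per2* and *Per3* and for *Nr1d2* and *Dbp*. *Per2* and *Per3* gave r = 0.87 (permutation *P* = 0.00034, adjusted *P* = 0.00765), with rho = 0.84 (permutation *P* = 0.00112) and r = 0.75 without WT-Nut3 RH1 and WT-Veh RH2, the 2 libraries farthest from the median of *Per2*. *Nr1d2* and *Dbp* gave r = 0.85 (permutation *P* = 0.00024, adjusted *P* = 0.00765), with rho = 0.87 (permutation *P* = 0.00029) and r = 0.81 without 2 libraries. *Nr1d2* and *Dbp* are both known E-box targets of ARNTL and CLOCK, but neither held CACGTG in the promoter windows read here. The part of that shared control in their correlation was not tested.

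*Per3* and *Arntl* went in opposite directions, with r = -0.80 (permutation *P* = 0.00253, adjusted *P* = 0.0242), rho = -0.85 (permutation *P* = 0.00075) and r = -0.80 without 2 libraries. *Nr1d1* and *Dbp* gave r = 0.78 (permutation *P* = 0.00269, adjusted *P* = 0.0242), rho = 0.82 (permutation *P* = 0.00179) and r = 0.56 without KO-Nut3 RH13 and KO-Veh RH16. Both genes were low in KO-Veh RH16 (46.7 and 35.0 CPM) and KO-Nut3 RH13 (49.3 and 38.6 CPM). *Arntl* and *Nr1d1* gave r = 0.79 (permutation *P* = 0.00208, adjusted *P* = 0.0242) but rho = 0.60 (permutation *P* = 0.0430, adjusted *P* = 0.186), and r = 0.75 without 2 libraries. *Per1* and *Nr1d2* gave r = 0.73 (permutation *P* = 0.00568, adjusted *P* = 0.0426), rho = 0.83 (permutation *P* = 0.00162) and r = 0.46 without WT-Nut3 RH1 and WT-Veh RH2, so that the Pearson value rested in part on those libraries.

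The pairs were also compared within the 6 libraries numbered up to RH8 and the 6 numbered from RH9. *Nr1d2* and *Dbp* held in both, with r = 0.95 (exact permutation *P* = 0.00278) and r = 0.85 (exact permutation *P* = 0.0375), and *Nr1d1* and *Dbp* gave r = 0.76 (exact permutation *P* = 0.0833) and r = 0.93 (exact permutation *P* = 0.00417). *Per2* and *Per3* gave r = 0.92 (exact permutation *P* = 0.00833) up to RH8 and r = 0.36 (exact permutation *P* = 0.467) from RH9. *Per3* and *Arntl* gave r = -0.34 (exact permutation *P* = 0.500) and r = -0.83 (exact permutation *P* = 0.0361). *Arntl* and *Nr1d1* turned sign, from r = -0.37 (exact permutation *P* = 0.456) to r = 0.75 (exact permutation *P* = 0.0917), and *Per1* and *Nr1d2* fell from r = 0.87 (exact permutation *P* = 0.0264) to r = 0.15 (exact permutation *P* = 0.750). On residuals from the 4 group means, permuted within groups (1296 permutations), the r of the 6 pairs lay between 0.77 and 0.94 in size with unchanged signs, and 0 of 45 pairs passed after adjustment, the lowest adjusted *P* being 0.0521 (exact permutation).

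**Figure D3:**
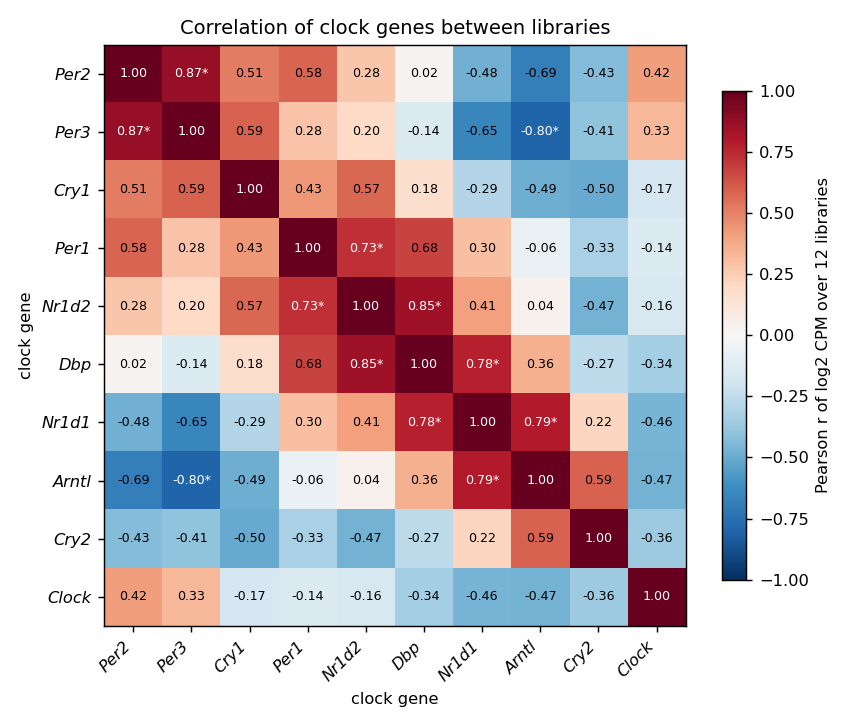
Pearson r of log2 CPM between each pair of clock genes (both axes) over 12 libraries, with an asterisk where the adjusted permutation *P* was under 0.05. *Per2* and *Per3* stand at r = 0.87, *Dbp* at r = 0.85 with *Nr1d2* and at r = 0.78 with *Nr1d1*, which are at r = 0.41 with each other, and *Arntl* runs against *Per3* at r = -0.80.

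Laid out by RH number across the 4 groups, the members reached their highest values in different libraries. *Nr1d1* was highest in RH5 (94.4 CPM), *Dbp* and *Nr1d2* in RH6 (63.1 and 142 CPM), *Per1* in RH7 (135 CPM), *Per3* in RH14 (91.1 CPM) and *Per2* in RH16 (79.5 CPM). *Per2* was lowest in RH2 and RH1, at 39.8 and 40.1 CPM, and *Nr1d1* and *Dbp* were lowest in RH16, at 46.7 and 35.0 CPM. A fit with the 4 groups and the RH number as terms, added after these values had been seen, measured the slope per 10 numbers on the log2 scale over all genes. With edgeR, 2 of the 10 members passed (0.181% of all genes did, and 10.1% had an unadjusted *P* under 0.05, as did 5 members), *Per2* with a slope of 0.58 (SE 0.077, adjusted *P* = 0.0110) and *Per3* with 0.38 (SE 0.043, adjusted *P* = 0.00430). *Per3* ranked 4 and *Per2* ranked 8 by *P* among 22592 genes. *Arntl* gave -0.40 (SE 0.075, edgeR adjusted *P* = 0.0618), *Nr1d1* gave -0.45 (SE 0.134, edgeR adjusted *P* = 0.259) and *Cry1* gave 0.23 (SE 0.095, edgeR adjusted *P* = 0.444), or between 0.09 (without WT-Veh RH15) and 0.28 when 1 library was left out.

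The RH number moved with other features of the libraries, whose part in these slopes cannot be told apart from it. The share of reads that mapped to several places was 3.07% to 3.22% up to RH8 and 3.33% to 3.55% from RH9, and with that share as a term *Per2* had a slope of 0.79 and *Per3* of 0.41 and 0 of 10 members passed (edgeR adjusted *P* = 0.9999 for both). The slope of *Arntl* was then -0.19 and that of *Nr1d1* 0.16. Without WT-Veh RH15, 0 of 10 passed, and without WT-Nut3 RH1, 1 of 10 passed. RH numbers averaged 10 in KO and 7.67 in WT libraries, with 3 libraries of each genotype up to RH8. In the vehicle groups they averaged 11 in KO-Veh, with 1 library up to RH8, and 7.33 in WT-Veh, with 2. With the RH number as a term, KO against WT moved from 0.15 to 0.04 for *Per2* and from 0.10 to 0.02 for *Per3*, was 0.17 in place of 0.19 for *Per1*, and 0 of 10 passed. After the 4 groups and the number were both removed, *Nr1d1* and *Dbp* were correlated at r = 0.98, *Nr1d2* and *Dbp* at r = 0.94 and *Per1* and *Nr1d2* at r = 0.78, as descriptions over 12 libraries. *Per2* and *Per3* went from 0.87 to 0.45, *Arntl* and *Nr1d1* from 0.79 to 0.50, and *Per3* and *Arntl* from -0.80 to 0.52.

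**Figure D4:**
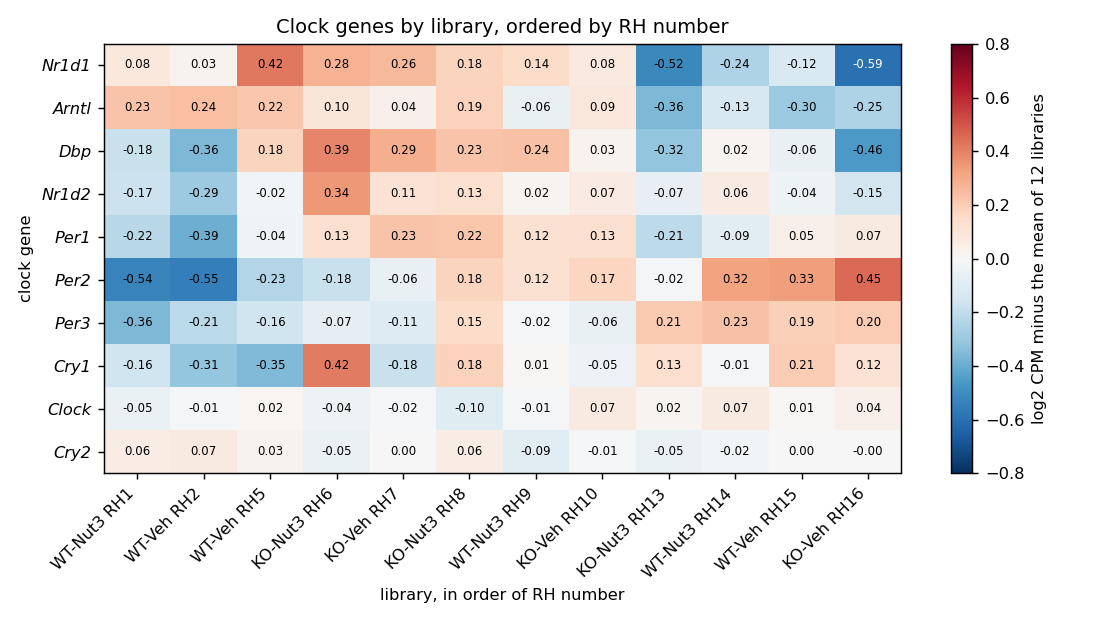
Log2 CPM of each clock gene (y axis) minus its mean of 12 libraries, with the libraries of all groups in order of RH number (x axis). *Nr1d1* and *Arntl* are above their means in the first libraries and below them in the last. *Dbp*, *Nr1d2* and *Per1* each have their highest library between RH5 and RH10, though not all libraries in that span are high. *Per2* runs from 39.8 CPM in RH2 to 79.5 CPM in RH16, and *Clock* and *Cry2* stay flat.

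The other 25 clock genes, from second activators and repressors to the kinases and ligases that time PER and CRY turnover, were taken by name. None of the 25 passed in any of the 7 comparisons (edgeR), and the number with an unadjusted *P* under 0.05 was 1 in KO-Veh against WT-Veh (beside 7.20% of all genes), 2 in KO-Nut3 against KO-Veh (7.60%), 0 in WT-Nut3 against WT-Veh (3.17%), 1 in KO-Nut3 against WT-Nut3 (4.87%), 0 in KO against WT (8.16%), 3 in Nut3 against Veh (7.29%) and 0 in the interaction (4.17%). *Npas2*, the paralog of *Clock* that can replace it in the forebrain, was at 28.7, 32.5 and 29.6 CPM in WT-Veh and at 27.4, 27.5 and 23.7 CPM in KO-Veh. These did not overlap, as was so for 1 of the 25 and for 12.4% of all genes, with a log2 fold change of -0.21 (SE 0.088, edgeR unadjusted *P* = 0.0346, adjusted *P* = 0.673). *Usp2*, a deubiquitinase with a rhythmic transcript, differed by 0.18 in KO-Nut3 against KO-Veh (SE 0.064, edgeR unadjusted *P* = 0.0198, adjusted *P* = 0.511). *Wee1*, a mitotic kinase gene under E-box control, was lower by -0.19 in KO-Nut3 against WT-Nut3 (SE 0.082, edgeR unadjusted *P* = 0.0490, adjusted *P* = 0.928).

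*Cirbp*, the cold-inducible RNA-binding protein gene whose transcript follows the daily cycle of body temperature, was the 1 of the 25 that passed in the fit on the RH number, beside 0.181% of all genes, and 5 of the 25 had an unadjusted *P* under 0.05, beside 10.1% of all genes (edgeR). It was at 76.3, 74.2 and 51.9 CPM in WT-Veh, 67.2, 58.7 and 49.3 CPM in WT-Nut3, 66.2, 54.6 and 44.2 CPM in KO-Veh and 73.2, 63.4 and 56.8 CPM in KO-Nut3. The lowest library of each group was again the one with the highest RH number. Its slope was -0.44 per 10 numbers (SE 0.052, edgeR adjusted *P* = 0.00460). With the multimapping share as a term, 0 of all 22592 genes passed (edgeR), *Cirbp* included. *Fbxl21*, the gene of a ligase that acts on CRY, had -0.41 (SE 0.153, edgeR adjusted *P* = 0.383) and *Tef*, a D-box factor related to DBP, had 0.11 (SE 0.043, edgeR adjusted *P* = 0.417).

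Genes whose pattern over the 12 libraries was most like that of a member were read from 11909 genes with a mean of at least 5 CPM, as a description. For *Dbp* the highest r belonged to *Sgpl1* (0.90), *Ciart* (0.89), *Pim3* (0.89), *Mafk* (0.88) and *Rfx7* (0.87), of which *Ciart* encodes a repressor of ARNTL and CLOCK and was among the 25 listed. The lowest belonged to *Ganab* (-0.89), *Lrrn3* (-0.85), *Abcc5* (-0.85) and *B9d1* (-0.84). For *Arntl* they were *Rsad1* (0.95), *Kcnk2* (0.93), *Ninl* (0.93), *Gas8* (0.93) and *Ebf4* (0.93) at the top and *Rpl26* (-0.91), *Srsf1* (-0.90), *Baz1b* (-0.90), *Rps24* (-0.89) and *4833439L19Rik* (-0.88) at the bottom. For *Per1* they were *Klf15* (0.94), a glucocorticoid-induced factor, with *Mat2a* (0.92), *Zbed4* (0.91) and *Phtf2* (0.91) at the top, and *Gm21781* (-0.94), *Ctc1* (-0.92), *Mtmr3* (-0.89), *2900005J15Rik* (-0.89) and *Omg* (-0.89) at the bottom. *Ciart* itself was lowest in WT-Nut3 RH1 (7.35 CPM), WT-Veh RH2 (8.36 CPM), KO-Veh RH16 (8.37 CPM) and KO-Nut3 RH13 (9.12 CPM) and lay between 12.2 and 16.8 CPM in the other 8 libraries.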

How the data were processed

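The deposited files hold unstranded whole-number counts per Ensembl gene, which the authors made with STAR on mm10 (version not given in the sources used here). The methods of the study describe paired-end reads and the labels single reads. A series table of the authors' own comparisons (fold changes and *P*-values) was not used. Identifiers were matched to symbols through GENCODE M21, and all listed genes were found. Between 21.2% and 22.6% of reads were counted outside genes and were left out. Genes with more than 20 counts in total were scaled by TMM and tested with edgeR 4.0.16 (quasi-likelihood F test, two-sided, Benjamini-Hochberg over all genes, threshold 0.05) in R 4.3.3, pairs of groups on their own 6 libraries and the factors on all 12. Log2 CPM used a prior count of 1. DESeq2 1.42.0, limma-voom (limma 3.58.1), other filters and scalings, covariates and each library left out in turn served as alternatives. The fits were tested on simulated data. The methods of the study call the libraries of a group biological replicates, and *P*-values measure the spread between them. Members and gene lists were chosen with earlier results of these data known. Named genes were all members, *Fmr1* and its paralogs, the other clock genes that passed or had the 3 lowest unadjusted *P*-values in a comparison, and the 5 genes most and least like *Dbp*, *Arntl* and *Per1*. A few genes that this rule names are not reported here.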

Additional observations from a re-analysis of the deposited data

How the results depend on the processing

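Of 240 counts of members or other clock genes called in the 7 comparisons under an alternative, 237 were 0. With all genes that had at least 1 count, edgeR called 2 members (*Per1* and *Per2*) and 1 other clock gene in KO-Veh against WT-Veh and 1 other clock gene in the interaction, and the cause was not tested. The shares of all genes called with that filter are not given here. Small fold changes that did not pass changed sign in KO against WT. *Cry2* went to 0.0084 when the level of choroid plexus genes entered the fit, and *Arntl* to 0.0309 and *Nr1d1* to 0.0078 with the RH number as a term, which was added after seeing the data. Leaving out 1 library moved *Clock* between -0.0187 and 0.0137, *Nr1d1* between -0.1551 and 0.0287 and *Dbp* between -0.0042 and 0.1542. The *Per2* interaction became 0.0142 with a term for numbers up to RH8 against from RH9. In all, 27 of 70 member folds changed sign under a setting that kept every library and 43 under any setting, leaving out 1 library included, none of them called in the fits reported. Correlated pairs numbered 0 of 45 on residuals from the group means and between 2 (without WT-Veh RH5) and 8 (without KO-Nut3 RH6) when 1 library was left out, with 3 without KO-Nut3 RH13. In the fit on the RH number, 4 members passed with all genes of at least 1 count, 0 members and 0 other clock genes with the term for the 2 number ranges, and 0 members with the multimapping share as a term, where the slope of *Nr1d1* was 0.1573. For the 4 members too, the share of all genes that passed with that filter is not given here. Leaving out 1 library gave between 0 (without WT-Veh RH15) and 3 members, and between 0 (without WT-Veh RH15) and 1 other clock gene. No paired analysis was possible because the groups share no replicate number. With 3 libraries per group, a log2 difference of *Per2* of up to 0.67 in KO-Veh against WT-Veh lay within its 95% bounds.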

Other observations

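The fit on the RH number, added after the values had been seen, also covered the lists of activity and stress hormone genes. Of all genes, 49.3% had a slope above 0, 10.1% an unadjusted *P* under 0.05 and 0.181% passed. Of the 11 glucocorticoid-responsive genes, 10 had a slope above 0, 8 had an unadjusted *P* under 0.05 and *Mt1*, a metallothionein gene, passed (slope 0.48 per 10 numbers, edgeR adjusted *P* = 0.00499). *Mt1* was lowest in WT-Nut3 RH1 (130 CPM) and highest in WT-Veh RH15 (236 CPM), and with the multimapping share as a term neither it nor any other gene passed. *Tsc22d3*, which encodes the glucocorticoid-induced GILZ protein, had a slope of 0.49 (edgeR adjusted *P* = 0.312). All 10 immediate-early genes had a slope above 0, 6 with an unadjusted *P* under 0.05, and 0 passed. In KO-Nut3 against KO-Veh none of these 10 was above 0, 8 had an unadjusted *P* under 0.05 and 0 passed (edgeR), with a median log2 fold change of -0.50 beside 0.00 for all genes. Of all genes, 50.8% were above 0 there, 7.60% had an unadjusted *P* under 0.05 and 0.199% passed. Tissue markers moved in the same comparison, with 11 of 11 choroid plexus genes above 0 (median 5.11, 5 passed) and 6 of 6 thalamic genes above 0 (median 1.03, 0 passed). The thalamic sum was 282 CPM in KO-Nut3 RH6, against 112 CPM in RH8, 84.9 CPM in RH13 and 54.2 to 117 CPM in KO-Veh. Of the meningeal fibroblast genes, 5 of 6 were above 0 (median 1.16, 5 with an unadjusted *P* under 0.05, 0 passed, edgeR), with the highest sum in KO-Nut3 RH8 (168 CPM). Of the hippocampal genes, 0 of 8 were above 0 (median -0.15, 0 passed). Their sum was 875 CPM in KO-Nut3 RH6, against 1219 CPM in RH8 and 1262 CPM in RH13, which lay within the KO-Veh range of 1177 to 1375 CPM. The part of these tissue markers in the immediate-early values was not tested. The first genes of the fit by *P*, *Muc19* and *Dcpp2*, are salivary gland genes.

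Likeness to *Per2*, added after the values had been seen, was highest for *Phip* (r = 0.97), *Gpt2* (0.97), *Top1* (0.95), *Ccnt2* (0.94) and *Dusp11* (0.93) and lowest for *App* (-0.96), the amyloid precursor gene, followed by *Myh7b* (-0.93), *Eif4b* (-0.92), *Nudt18* (-0.90) and *Rrp15* (-0.89), over 12 libraries. *Rora*, the activator of *Arntl* that is also strong in the thalamus, was at 77.3 CPM in KO-Nut3 RH6 and between 36.8 and 48.3 CPM in the other 11 libraries. No library of either genotype lay far from the other 5 in any of the 10 members by Dixon's rule, in 20 groups of 6 libraries.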
